A study of Mus musculus with 9 samples.

Results

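Draxin and the other secreted Wnt antagonists form a group of 9 genes, Draxin, Dkk1, Dkk2, Dkk3, Sfrp1, Sfrp2, Sfrp5, Frzb and Wif1. The genes were chosen by name, and each matched a row among the 21356 distinct symbols in the table of midbrain RNA. Wnt proteins bind a Frizzled receptor together with the co-receptor Lrp5 or Lrp6, which stabilises beta-catenin and switches on its target genes. Secreted antagonists act outside the cell, either by binding the Wnt protein itself (the Sfrp family, Frzb and Wif1) or by occupying the co-receptor (Dkk1 and Dkk2, and, by reports of its binding to Lrp6, Draxin). In the early midbrain, Wnt signalling helps to set the dorsal identity and the growth of the tectum, and Draxin is best known as a guidance cue that repels growing axons.

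The libraries came from dissected midbrain of C57BL/6 embryos at E13.5, with 3 libraries in each of 3 genotypes, 9 in all. The floxed control was Gpr161f/f with no Cre. The Cre control was Gpr161f/+;Wnt1-Cre, and so carried 1 floxed allele and the transgene. The cKO was Gpr161f/f;Wnt1-Cre, whose sample titles spell the gene Gpt161. All 3 genotypes thus carried at least 1 floxed allele, and a wild-type group without one was not analysed here. The Wnt1-Cre transgene is driven by Wnt1 regulatory sequence. The study states that recombination first occurs in the dorsal neuroectoderm of the midbrain. Its reporter staining had spread widely in the midbrain and hindbrain before the stage sampled here. The share of the dissected tissue that had recombined was not measured. The comparisons ask how loss of Gpr161, a receptor that restrains sonic hedgehog (Shh) signalling, in the Wnt1 lineage alters expression. The Cre control shares the transgene with cKO, and its 1 floxed allele can be deleted in that lineage. Its difference from the floxed control thus cannot tell the transgene from loss of 1 Gpr161 allele. The labels do not state the litter or whether tissue was pooled, so p-values measure the spread between these libraries, and no batch is given.

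Values are the deposited log2 levels, in which low genes are drawn together, so a difference in log2 level understates the fold change of a weakly expressed gene. The number of reads behind each value is unknown. The libraries had nearly the same total on the linear scale, 26609941 to 27496648. Gpr161 itself was not lower in the libraries labelled cKO, at 11.74, 11.95 and 11.94, than in the floxed control, at 11.80, 11.74 and 11.78, or in the Cre control, at 11.77, 11.91 and 11.96 (differences 0.11 and 0.00033, adjusted p = 0.223 and 0.998). The 1 value per gene cannot separate the deleted part of Gpr161 from the rest of the transcript or from unrecombined cells, so it does not check these labels. Gli1, a Shh target, exceeded the floxed control 2.11-fold in cKO and the Cre control 2.07-fold (adjusted p = 3.17e-05 and 7.49e-05). Wnt1 averaged 9.19 without Cre, 10.94 in the Cre control and 10.65 in cKO, and was higher in every library with the transgene than in those without. Of the midbrain and isthmus markers, Otx2 (11.32, 11.47 and 11.36) and En2 (12.20, 12.42 and 12.36) were well expressed in all 3 genotypes. Others in that list differed between cKO and the floxed control. Pax2 (−0.63, adjusted p = 0.0146), Pax7 (−0.48, adjusted p = 0.00595) and Pax3 (−0.37, adjusted p = 0.0128) were lower, and Pax5 was higher (0.56, adjusted p = 0.00311).

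Of the 8 antagonists tested, Draxin had the smallest p in both cKO comparisons, and it was lowest in cKO. In the floxed control its log2 level was 12.14, 11.97 and 12.17. In the Cre control it was 11.85, 11.93 and 11.88, and in cKO it was 11.40 in all 3 libraries. No library of any genotype overlapped with those of another. How many of all genes separated the genotypes in this way was not counted, here or for the antagonists below. The SD of the 3 cKO libraries was 0.0037, where the median SD within a genotype was 0.0639 for genes with a mean of 10 to 12. The mean fell by 0.69 on the log2 scale from the floxed control to cKO (95% confidence interval of the difference −0.81 to −0.58, adjusted p = 0.000127), a level 1.62-fold lower. Against the Cre control it fell by 0.49 (−0.60 to −0.37, adjusted p = 0.0016), a level 1.40-fold lower. Draxin ranked 10 and 22 by p among the 14029 genes tested in these comparisons. The Cre control was itself 0.21 below the floxed control on the log2 scale (difference −0.21, −0.32 to −0.091), which did not pass (adjusted p = 0.145). Draxin was among the genes the study itself singled out from these libraries, so its direction here is not independent evidence. In dissected tissue, fewer cells that express Draxin and less Draxin RNA per cell cannot be told apart.

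**Figure D1:**
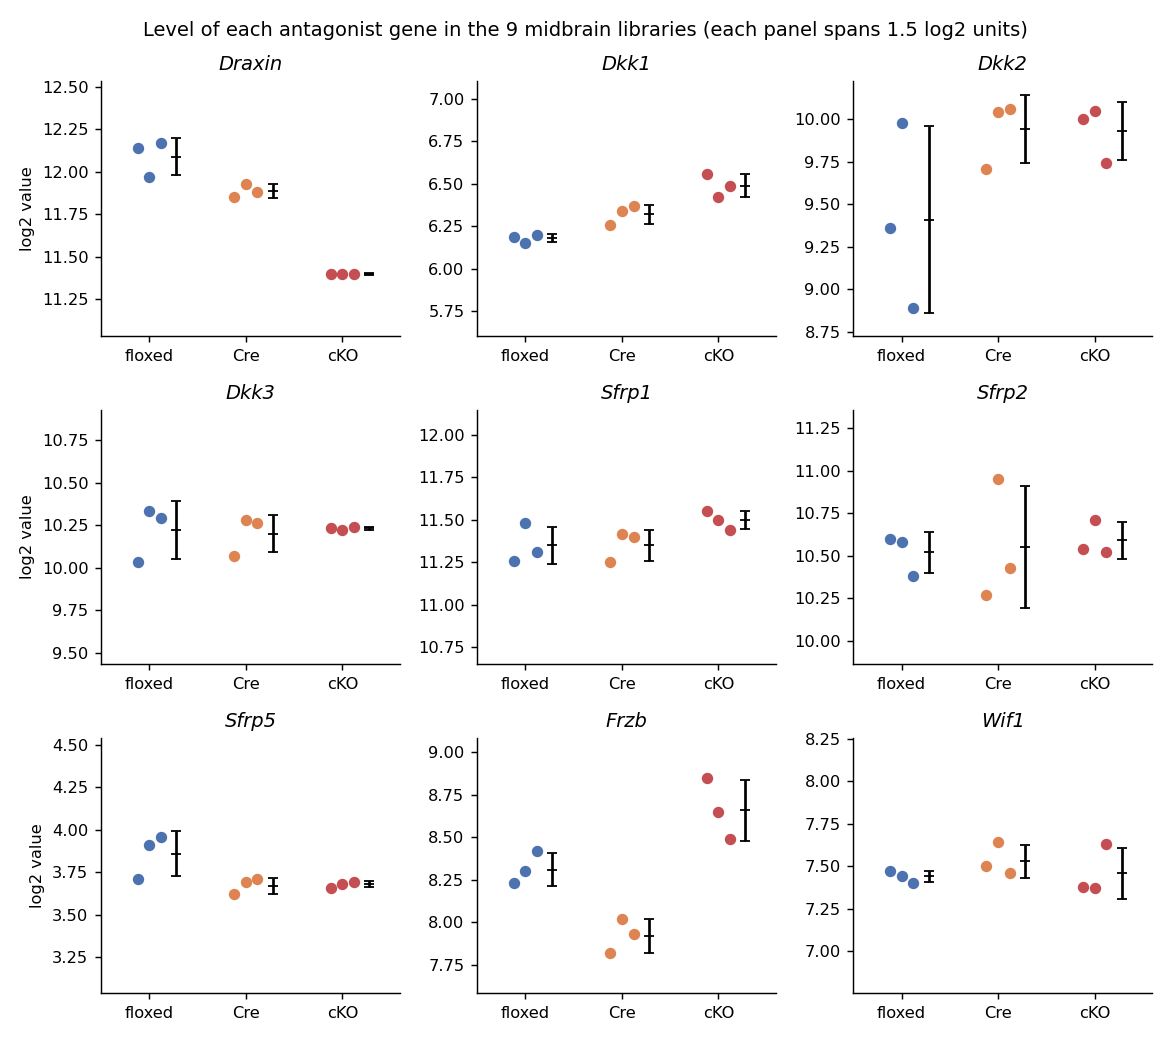
The log2 level (vertical axis) of each of the 9 genes in the floxed control, Cre control and cKO libraries, with 1 point per library and the mean ± SD (n = 3) beside the points. Each panel spans 1.5 log2 units. Draxin steps down from 12.09 to 11.89 to 11.40, Frzb is lowest in the Cre control (7.92) and highest in cKO (8.66), and the 3 floxed control points of Dkk2 spread from 8.89 to 9.98.

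The Draxin gene lies at chr4:148098437-148130698 on the minus strand (GRCm38, GENCODE M21), and the opposite strand holds Mad2l2, which overlaps the gene but shares 0 exon bases with it. Mad2l2 differed by −0.24 between cKO and the floxed control (adjusted p = 0.00455) and by −0.069 between cKO and the Cre control (adjusted p = 0.368). The sequence upstream of the Draxin start is shown because Draxin was the antagonist that fell in both comparisons, so that the letters searched for Wnt and Shh target motifs can be read. It covers the 250 bases before the start, chr4:148130699-148130948 on the minus strand (RefSeq, GRCm38.p6), and is written 5′ to 3′ in lower case because it held none of the motifs searched.
Draxin: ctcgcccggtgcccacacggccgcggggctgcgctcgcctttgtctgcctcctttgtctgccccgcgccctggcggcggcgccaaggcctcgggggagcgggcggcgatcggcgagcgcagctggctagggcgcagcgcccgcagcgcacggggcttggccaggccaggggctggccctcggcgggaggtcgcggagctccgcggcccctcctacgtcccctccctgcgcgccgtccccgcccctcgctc
The search used CTTTGA, taken here as the core of the site of TCF/LEF factors, and its longer form CTTTGAT, which contains the core. It also used GACCACCCA, the site of Gli factors. Both strands were searched, over 250 bases before and 50 after the start. Other forms of the TCF/LEF site were not searched, among them CTTTGT, which is in the Draxin sequence above. Of 32851 RefSeq promoters of that length, 16.0% held CTTTGA, 3.73% held CTTTGAT and 0.253% held GACCACCCA. Promoters were at hand for 7 of the 9 antagonist genes, and 2 of the 7, Dkk1 and Frzb, held CTTTGA, and none of the 7 held either of the other motifs. Draxin's absence of a match says only that these letters are not in this window.

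The genotypes with less Draxin were also those with lower neuronal markers. Linear levels were scaled so that each library sums to 1000000 (the cpm scale). On it, the sum of 12 neuron markers was 7000, 6700 and 7190 in floxed control libraries, 5240, 6250 and 6360 in those of the Cre control and 4550, 5130 and 5150 in cKO. Between cKO and the floxed control 12 of 12 neuron markers were lower past the test, where 18.8% of all genes were. Among them were Tubb3 (−0.41), Dcx (−0.64), Stmn2 (−0.51) and Map2 (−0.38), and the median was −0.53 against 0.011 for all genes. Between cKO and the Cre control 4 of 12 were lower past the test, where 4.85% of all genes were, with a median of −0.23 against 0.012. The ranges of the summed markers did not overlap between genotypes, as with Draxin itself. The Cre control library with the lowest sum, 5240, held Draxin at 11.85, and the cKO library with the highest, 5150, held it at 11.40. Progenitor markers went the other way, with sums of 3910 to 4090, 4010 to 4320 and 4420 to 4800 in the same order. Of these, 7 of 12 passed as higher in cKO against floxed libraries, where 19.5% of all genes did. Among them were Sox2 (0.29), Nes (0.50) and Vim (0.31), while Pax6 stood at 0.025 (adjusted p = 0.86). The part of these markers in the Draxin result was not tested.

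**Figure D2:**
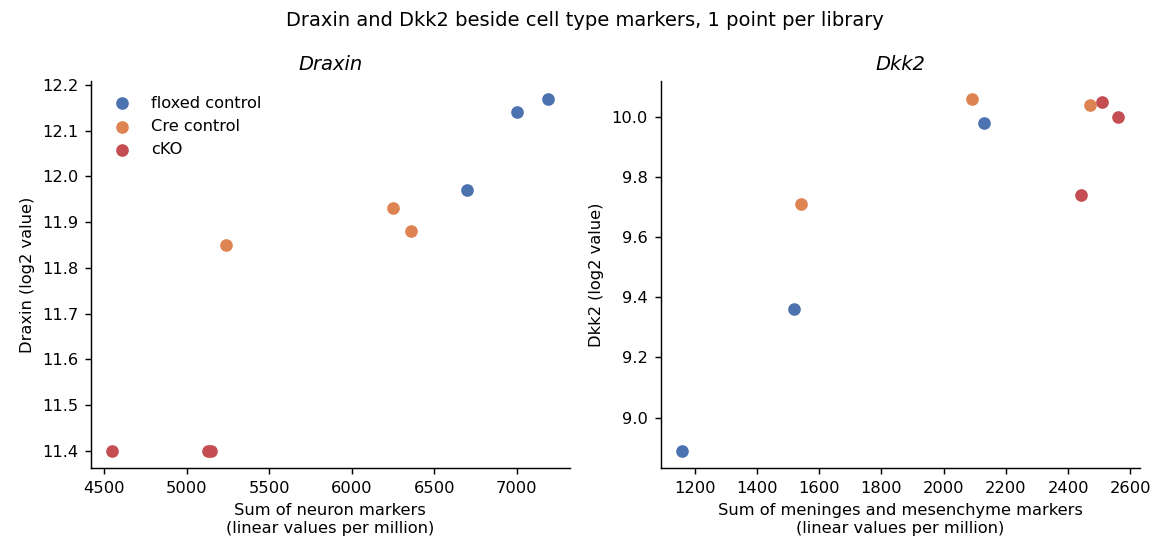
The log2 level of Draxin against the summed linear level of 12 neuron markers (left), and of Dkk2 against that of 12 markers of meninges and mesenchyme (right), with 1 point per library coloured by genotype. On the left the cKO libraries lie at 11.40 between 4550 and 5150, and on the right the floxed control library with the lowest marker sum (1160) has the lowest Dkk2 (8.89).

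Genes whose levels followed Draxin most closely over the 9 libraries included Ica1 (Pearson r = 0.991), Ppp2r3a and Tmcc1 (0.990 each) and Klhl5 (0.989). The points share genotypes and libraries, and 158 genes had r above 0.95, so this is a description of the pattern alone. Ica1 differed by −0.41 between cKO and the floxed control (adjusted p = 0.000558) and by −0.27 between cKO and the Cre control (adjusted p = 0.0142). Klhl5 followed the same order of genotypes over a much narrower span, with means of 10.82, 10.78 and 10.70.

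Over the group, 3 of the 8 antagonists tested differed between cKO and the floxed control (adjusted p below 0.05 by limma, over all tested genes). Dkk1 and Frzb were higher and Draxin was lower. Of all 14029 genes tested, 19.5% were higher and 18.8% lower in this comparison, so the share of antagonists past the test was close to that of genes in general. The median difference of the 8 genes was 0.11, against 0.011 over all genes. With a fold change over 1.5 also required, which makes a gene a DEG here, Draxin alone remained of the 8, where 2.92% of all genes did. Between cKO and the Cre control 2 of 8 passed, Frzb higher and Draxin lower, where 4.86% of all genes were higher and 4.85% lower. The median was 0.033 against 0.012 over all genes, and Frzb alone was a DEG, as were 0.563% of all genes. Both comparisons use the same cKO libraries.

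**Figure D3:**
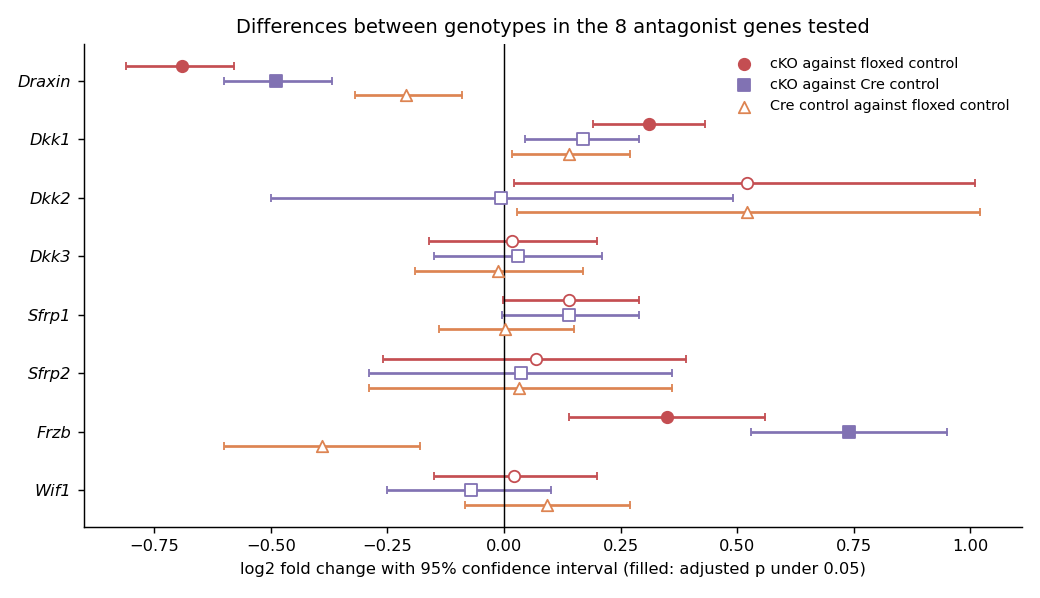
The log2 fold change (horizontal axis) of the 8 antagonist genes tested, with its 95% confidence interval, for cKO against the floxed control (circles), cKO against the Cre control (squares) and the Cre control against the floxed control (triangles). Filled symbols passed at an adjusted p below 0.05. Draxin lies at −0.69 and −0.49 and Frzb at 0.35 and 0.74 in the cKO comparisons, and no triangle is filled.

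Frzb, a secreted Frizzled-related protein that binds Wnt proteins and is also called Sfrp3, was the antagonist that rose in cKO against both controls. Its log2 level was 8.23, 8.30 and 8.42 in the floxed libraries, 7.82, 8.02 and 7.93 in Cre controls and 8.85, 8.65 and 8.49 in cKO. The genotypes did not overlap, and their order put the Cre control lowest, unlike that of Draxin. In cKO Frzb exceeded the Cre control by 0.74 (0.53 to 0.95, adjusted p = 0.00351), or 1.67-fold, and the floxed control by 0.35 (0.14 to 0.56, adjusted p = 0.015), or 1.27-fold. The second call rested on single libraries, since without floxed control replicate 1 the difference was 0.31 (adjusted p = 0.0571), and leaving out cKO replicate 1 gave 0.26 (adjusted p = 0.0558). The Cre control was 0.39 below the floxed control (difference −0.39, −0.60 to −0.18), which did not pass (adjusted p = 0.145). The sums of the meninges and mesenchyme markers were 1520, 2130 and 1160 in floxed control libraries, 1540, 2470 and 2090 in those of the Cre control and 2560, 2510 and 2440 in cKO. Within the Cre control, the library with the lowest marker sum, replicate 1, also had the lowest Frzb, and replicate 2 had the highest of both, while in the floxed control the library with the lowest sum had the highest Frzb. The part of these cells in the Frzb result was not tested.

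Dkk1, which blocks Wnt signalling by binding Lrp5 and Lrp6, was weakly expressed and rose in cKO against the floxed control. Its level was 6.19, 6.15 and 6.20 in the floxed libraries, 6.26, 6.34 and 6.37 in Cre controls and 6.56, 6.42 and 6.49 in cKO. The 3 genotypes did not overlap, and the Cre control lay between the other two. The difference was 0.31 against the floxed control (0.19 to 0.43, adjusted p = 0.00253), or 1.24-fold, and 0.17 against the Cre control (0.045 to 0.29), which did not pass (adjusted p = 0.0812). Whether the difference from the floxed control was larger than that from the Cre control was not tested.

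The matches to the TCF/LEF core beside Dkk1 and Frzb are shown because these were the antagonists higher in cKO. Each line gives 30 bases 5′ to 3′ on the gene's own strand, with the match in capitals, as CTTTGA or as its reverse complement TCAAAG. The first Dkk1 match begins 174 bases before the RefSeq start (chr19:30549653-30549682, minus strand) and lies across the start that GENCODE gives to the gene. The second begins 117 bases before it (chr19:30549596-30549625), within the 5′ UTR of the GENCODE transcript. The Frzb match begins 95 bases before the RefSeq start (chr2:80447474-80447503, minus strand), also within the 5′ UTR of the GENCODE transcript.
Dkk1 first match: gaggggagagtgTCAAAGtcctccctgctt
Dkk1 second match: ctcctcccaaagCTTTGAaatcccatcccg
Frzb match: tcccctgaaaacTCAAAGccttctcggaag
The Dkk1 gene lies at chr19:30545863-30549665 and Frzb at chr2:80411970-80447625, both on the minus strand. The other genes lie at chr3:132085292-132180304 (Dkk2, plus strand), chr7:112116017-112159057 (Dkk3, minus), chr8:23411502-23449632 (Sfrp1, plus), chr3:83766321-83774316 (Sfrp2, plus), chr19:42197971-42202252 (Sfrp5, minus) and chr10:121033960-121100650 (Wif1, plus). A match is a description of the letters and not evidence that a factor binds there.

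Dkk2, which also binds Lrp5 and Lrp6, varied more between libraries than any other antagonist. Its level was 9.36, 9.98 and 8.89 in floxed control libraries, 9.71, 10.04 and 10.06 in those of the Cre control and 9.996, 10.054 and 9.74 in cKO. The floxed control alone spanned more than 1 log2 unit and overlapped with both other genotypes. The difference of cKO from the floxed control was 0.52 (0.021 to 1.01, adjusted p = 0.0922). With the replicate number as a block in limma it passed narrowly (adjusted p = 0.0495). The difference from the Cre control was −0.007 (−0.50 to 0.49, adjusted p = 0.988). That from the floxed control rested on single floxed control libraries. It was 0.80 and past the test without replicate 2 (adjusted p = 0.00567) and 0.26 without replicate 3 (adjusted p = 0.31). Replicate 2 was lowest in its group in the mean level of Y-linked genes (7.83, against 9.99 and 9.52). With that mean as a covariate in limma, cKO differed from the floxed control by 0.57 (adjusted p = 0.0683). Replicate 2 also had the highest sum of meninges and mesenchyme markers in its group (2130), and replicate 3, with the lowest sum (1160), had the lowest Dkk2. Of these 12 markers 8 passed as higher in cKO against floxed libraries, where 19.5% of all genes did. Among them were Col1a2 (0.69), Col3a1 (0.77) and Dcn (0.49), while Col1a1 stood at 0.77 (adjusted p = 0.0901). Against the Cre control 0 of 12 passed by limma, with Col3a1 at 0.47 (adjusted p = 0.121). At an unadjusted p below 0.05 there were 3, where 4109 of the 14029 genes tested were below it. The part of these cells in the Dkk2 values was not tested.

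Dkk3, a divergent member of its family that is not a clear Wnt antagonist, passed in no comparison. It stood at 10.03, 10.33 and 10.29 in the floxed libraries, 10.07, 10.28 and 10.26 in Cre controls and 10.23, 10.22 and 10.24 in cKO, so that all cKO libraries lay within the range of both controls. The differences were 0.017 (−0.16 to 0.20, adjusted p = 0.886) and 0.030 (−0.15 to 0.21, adjusted p = 0.834). These intervals hold differences of up to 0.20 and 0.21.

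Sfrp1, which binds Wnt proteins through a domain like that of the Frizzled receptors, stood at 11.26, 11.48 and 11.31 in floxed control libraries, 11.25, 11.42 and 11.40 in those of the Cre control and 11.55, 11.50 and 11.44 in cKO. All 3 cKO libraries were above those of the Cre control, and the lowest of them was below the highest of the floxed control. The difference was 0.14 in each comparison (−0.0013 to 0.29 and −0.0037 to 0.29), and neither passed (adjusted p = 0.107 and 0.18). It did pass against the floxed control without floxed control replicate 2 (0.21, adjusted p = 0.0271) or after quantile normalization (0.18, adjusted p = 0.0452).

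Sfrp2, a close relative of Sfrp1, did not separate the genotypes. Its level was 10.60, 10.58 and 10.38 in the floxed libraries, 10.27, 10.95 and 10.43 in Cre controls and 10.54, 10.71 and 10.52 in cKO, and the Cre control spanned all other libraries. The differences of cKO were 0.068 (−0.26 to 0.39, adjusted p = 0.737) and 0.036 (−0.29 to 0.36, adjusted p = 0.89). An antisense gene, Gm26771, shares 347 exon bases with Sfrp2, and since the counting is not stated to use strand, their reads may not have been told apart.

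Wif1, which binds Wnt proteins through its own WIF domain, also passed in no comparison. It stood at 7.47, 7.44 and 7.40 in floxed control libraries, 7.50, 7.64 and 7.46 in those of the Cre control and 7.38, 7.37 and 7.63 in cKO. One cKO library, replicate 3, reached the top of the Cre control, and the other two lay below every other library. The differences were 0.021 (−0.15 to 0.20, adjusted p = 0.853) and −0.072 (−0.25 to 0.10, adjusted p = 0.574).

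Sfrp5, the remaining Sfrp gene of the group, was near the bottom of the scale and below the filter of 1 cpm in at least 3 libraries, which corresponds to a log2 level of 4.73 to 4.78. It stood at 3.71, 3.91 and 3.96 in the floxed libraries, 3.62, 3.69 and 3.71 in Cre controls and 3.66, 3.68 and 3.69 in cKO. The cKO libraries lay below every floxed control library and within the range of the Cre control. It was not among the 14029 genes tested. Without the filter, over 19549 genes, the difference of cKO was −0.18 against the floxed control (−0.31 to −0.048), which passed narrowly (adjusted p = 0.0489), and 0.0054 against the Cre control (−0.13 to 0.14, adjusted p = 0.963). The median SD within a genotype was 0.0533 for genes with a mean of 3 to 5 and 0.0919 for those of 6 to 8, so at this height of the scale values lie close together and the narrow spread says little about Sfrp5.

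When the 2 controls were compared, 0 of 8 antagonists passed by limma, in a comparison where 0.0499% of all genes were higher, 0.00713% were lower and 0.0285% were DEGs. At an unadjusted p below 0.05 there were 4 of 8, namely Draxin (−0.21), Frzb (−0.39), Dkk1 (0.14) and Dkk2 (0.52), while 2451 of the 14029 genes tested were below it. Draxin and Frzb did not overlap between these controls, both being lower in every Cre control library, and Dkk1 was higher in every one. How many of all genes were separated in this way was not counted, so this only describes these libraries. The median of the 8 differences was 0.017, against −0.001 over all genes. With 3 libraries against 3, an exact two-sided permutation test of a single gene cannot go below p = 0.1, so the calls rest on the spread that limma shares over genes.

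To set the antagonists beside each other, levels were taken per kilobase of transcript on the log2 scale. Sfrp2 (9.55 ± 0.20, SD over 9 libraries), Draxin (9.42 ± 0.31) and Sfrp1 (9.27 ± 0.11) formed the top, and these neighbours did not differ beyond their spread. That spread is taken over all 3 genotypes and so includes the differences between them. Dkk3 (8.47 ± 0.10) and Dkk2 (7.87 ± 0.40) followed, then Frzb (6.65 ± 0.34) and Wif1 (6.31 ± 0.098), which lay within their combined spread, and last Dkk1 (5.05 ± 0.14) and Sfrp5 (2.81 ± 0.12), each apart from its neighbours. The genotypes differed at the top of this order. In the floxed control Draxin had the highest mean level per length (9.71 ± 0.11, n = 3), ahead of Sfrp2 (9.52 ± 0.12), and in cKO it came after 2 others (9.02 ± 0.0037), behind Sfrp2 (9.59 ± 0.11) and Sfrp1 (9.37 ± 0.054). Lengths came from the annotation and not from the isoforms present, so the order across genes is approximate.

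As a share of the summed linear level per length of the 9 genes, Draxin made up 28.7% ± 3.0 (SD, n = 3) of floxed control transcripts, 25.2% ± 1.9 in Cre controls and 18.4% ± 0.64 in cKO. Its share in cKO, 17.9% to 19.1%, did not reach the lowest control library, at 23.3%. Sfrp1 went from 20.4% ± 1.0 and 20.7% ± 1.2 in the controls to 23.4% ± 0.63 in cKO, and Sfrp2 was 25% ± 1.7, 26% ± 4.0 and 27.2% ± 1.4 in the same order. Frzb made up 3.45% ± 0.30, 2.66% ± 0.098 and 4.58% ± 0.50. Shares sum to the whole, so a lower share of 1 abundant gene raises the others, and these values were given no test. The summed linear level of the 9 genes, not divided by length, was 402, 422 and 400 cpm in the floxed control, 371, 431 and 394 in the Cre control and 375, 378 and 355 in cKO, so that the cKO libraries overlapped with the Cre control and lay below the floxed control.

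**Figure D4:**
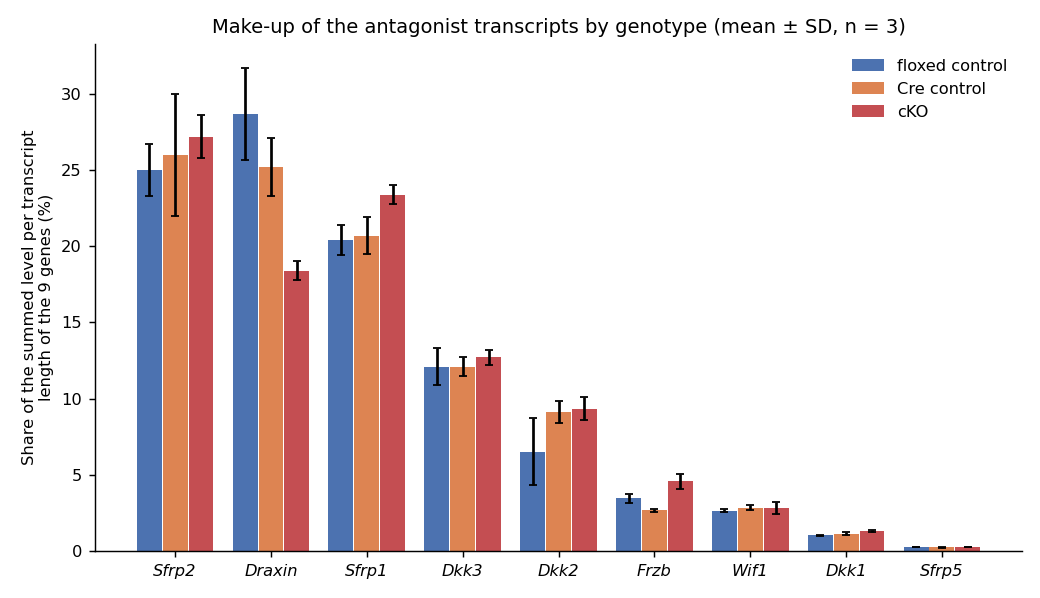
The share (vertical axis, percent) that each of the 9 genes takes of their summed linear level per transcript length, as the mean of 3 libraries per genotype with error bars of 1 SD. Draxin is the largest share in the floxed control (28.7%) and falls behind Sfrp2 and Sfrp1 in cKO (18.4%).

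Other extracellular inhibitors of the pathway were 11 genes, of which 9 were tested. Against the floxed control 5 of 9 were higher in cKO past the test and 0 lower, where 19.5% and 18.8% of all genes were. The median was 0.17, and the highest was Notum, a lipase that removes the fatty acid from Wnt proteins, at 0.82 (adjusted p = 0.00153). Apcdd1, a membrane-bound Wnt inhibitor, was 0.57 higher (adjusted p = 0.000451) and Igfbp4, a binding protein of insulin-like growth factors that also binds Wnt receptors, was 0.50 higher (adjusted p = 0.00761). Against the Cre control 2 of 9 were higher, where 4.86% of all genes were. They were Notum (0.79, adjusted p = 0.0111) and Apcdd1 (0.36, adjusted p = 0.0141), and the median of the list was 0.11. Notum stood at 6.17 and 6.19 in the controls and 6.99 in cKO. Those that passed were higher, where Draxin was lower. The number at an unadjusted p below 0.05 was the same, 5 and 2, with 0 lower, where 6743 and 4109 of the 14029 genes tested were below it. The medians over all genes were 0.011 and 0.012 in the 2 comparisons.

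Of 12 genes tested in the list of Dkk and Draxin receptors, which also holds the netrin ligand Ntn1, 4 passed as higher and 5 as lower in cKO against floxed libraries (median −0.021). Of all genes tested, 19.5% were higher and 18.8% lower. Kremen2 and Kremen1, co-receptors through which Dkk proteins remove Lrp6 from the surface, were 0.71 (adjusted p = 0.000305) and 0.35 higher (adjusted p = 0.00092), and Lrp5 was 0.34 higher (adjusted p = 0.00571), while the difference of Lrp6 was 0.045 (adjusted p = 0.445). The genes that were lower belong to the netrin and guidance receptors reported to bind Draxin or related to those that do. They were Dcc (−0.41), Unc5a (−0.52), Unc5c (−0.52), Unc5d (−0.70, adjusted p = 0.000652) and Dscam (−0.61), while Unc5b was 0.33 higher. Against the Cre control Kremen2 was higher (0.29, adjusted p = 0.0361) and Unc5d lower (−0.55, adjusted p = 0.00986), and the other 10 did not pass. In that comparison 4.86% of all genes were higher and 4.85% lower. Dcc, Unc5a, Unc5c, Unc5d and Dscam are expressed in neurons, and the neuron markers above were lower in the same libraries, the part of which was not tested.

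**Figure D5:**
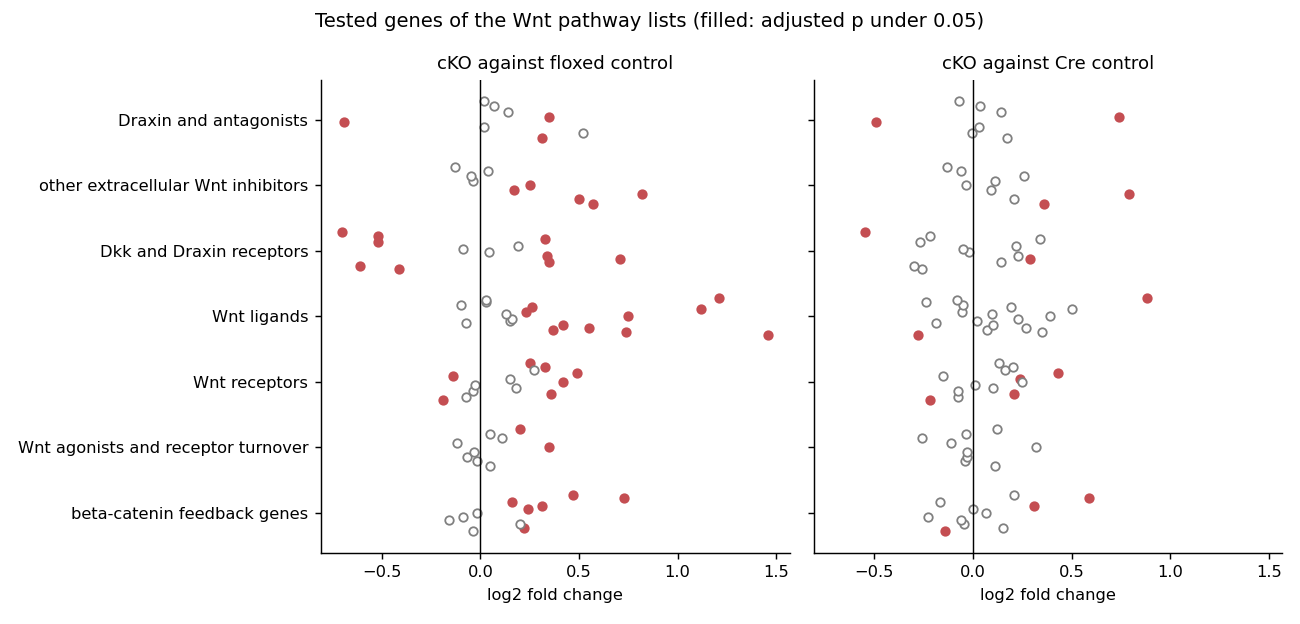
The log2 fold change (horizontal axis, the same in both panels) of each tested gene of the antagonists and of 6 lists of Wnt pathway genes, in cKO against the floxed control (left) and against the Cre control (right). Filled points passed at an adjusted p below 0.05. All 10 filled Wnt ligands on the left lie above 0, and on the right 1 of the 2 filled ligands, Wnt1, lies at −0.28.

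Among the Wnt ligands, 10 of 17 tested passed as higher in cKO against floxed libraries and 0 as lower (0 also at an unadjusted p below 0.05, with a median of 0.26). Of all genes tested, 19.5% were higher and 18.8% lower. Wnt1 was 1.46 higher (adjusted p = 1.72e-05), Wnt9b 1.21 higher (adjusted p = 0.000285) and Wnt10a 0.74 higher (adjusted p = 0.00101). The Cre control also stood above the floxed control, with a median of 0.29 over the list, no smaller than that of cKO. There Wnt1, at 1.75 (adjusted p = 3.47e-06), was the 1 ligand of 17 that passed, where 0.0499% of all genes were higher. Against the Cre control 1 was higher, Wnt9b (0.88, adjusted p = 0.00613), and 1 lower, Wnt1 (−0.28, adjusted p = 0.0373), with a median of 0.097. In that comparison 4.86% of all genes were higher and 4.85% lower. Wnt10a stood at 0.35 (adjusted p = 0.0603).

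Of 13 Wnt receptors tested, 5 passed as higher and 2 as lower in cKO against floxed libraries (median 0.18), where 19.5% and 18.8% of all genes did. Against the Cre control 3 did so as higher and 1 as lower (median 0.13), where 4.86% and 4.85% of all genes did. Fzd9 was 0.49 and 0.43 higher in these comparisons (adjusted p = 0.000471 and 0.00425) and Fzd2 0.36 and 0.21 higher (adjusted p = 0.00105 and 0.0373). Ryk, a Wnt receptor outside the Frizzled family, was 0.25 higher than in the floxed control (adjusted p = 0.00127) and stood at 0.13 against the Cre control (adjusted p = 0.0505). Among 9 genes of agonists and receptor turnover, 2 were higher against the floxed control, a share near the 19.5% of all genes. They were the Frizzled-removing ligases Rnf43 (0.35, adjusted p = 0.019) and Znrf3 (0.20, adjusted p = 0.0358). Against the Cre control 0 of these 9 passed by limma, with Rnf43 at 0.32 (adjusted p = 0.0658). An unadjusted p below 0.05 was found for 2 of them and for 4109 of the 14029 genes tested.

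Genes that beta-catenin commonly switches on did not move as one. Of 11 tested, 6 passed as higher in cKO against floxed libraries and 0 as lower (0 also at an unadjusted p below 0.05, with a median of 0.20), where 19.5% and 18.8% of all genes did. Against the Cre control 2 did so as higher and 1 as lower (median −0.0024), where 4.86% and 4.85% of all genes did. Sp8 was higher against both (0.73, adjusted p = 0.000479, and 0.59, adjusted p = 0.00676). Tcf7 was 0.47 higher than in the floxed control (adjusted p = 0.00113) and Nkd1 0.24 higher (adjusted p = 0.00601), while against the Cre control they stood at 0.21 (adjusted p = 0.0752) and −0.0024 (adjusted p = 0.983). Axin2, the most widely used readout of the pathway, stood at −0.038 against the floxed control (adjusted p = 0.442) and was 0.14 lower than in the Cre control (difference −0.14, adjusted p = 0.0477).

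Markers of other tissue at the edges of the dissection also differed between libraries. Choroid plexus markers summed to 206, 639 and 523 cpm in the floxed control, 141 to 326 in the Cre control and 142 to 204 in cKO, and hindbrain markers to 16.2 to 23.6, 11.3 to 15.1 and 12.4 to 13.6. Against floxed libraries 1 of 6 choroid plexus markers and 4 of 6 hindbrain markers were lower in cKO, and 1 hindbrain marker was higher. Of all genes tested, 19.5% were higher and 18.8% lower against floxed libraries, and 4.86% and 4.85% against the Cre control. Erythroid markers summed to 5510 to 9380, 6570 to 7770 and 8470 to 16300, with 5 of 8 passing as higher in cKO against floxed libraries and 3 of 8 against the Cre control. Endothelial markers summed to 208 to 271, 230 to 292 and 274 to 295, with 4 of 7 higher against the floxed control. Floor plate markers (511 to 749 over all libraries) and microglia markers (95.7 to 120) gave 0 of 8 passing each in both comparisons by limma. At an unadjusted p below 0.05 there were 1 and 5 of 8 floor plate markers and 3 and 0 of 8 microglia markers, against the floxed and Cre controls in turn. Of the 14029 genes tested, 6743 and 4109 were below it in these comparisons. Of 9 midbrain and isthmus markers 1 was higher and 3 lower in cKO against floxed libraries, and 1 higher against the Cre control. Of 4 neural crest glia markers tested 1 was higher against floxed libraries. The part of any of these in the antagonist values was not tested.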

How the data were processed

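Poly-A selected midbrain RNA was sequenced by the authors in 9 libraries. The submitters' processing notes name FastQC 0.10.1, kallisto 0.46.1, DESeq2 and mm10. The deposited table holds log2 values, made by the authors, that look like a regularized log transformation that is not named in the sources used here. Such a scale shrinks low values, and holds no counts, so no count model was run. Of 27360 rows, 5764 had no gene name and 4840 held 0 in every library. From the deposited values, linear levels were scaled to a sum of 1000000 per library (cpm), and the 14029 genes that reached 1 cpm in 3 or more libraries were tested. limma 3.58.1 in R 4.3.3 fitted a mean per genotype over all 9 libraries with a trend (two-sided), and p-values were adjusted by Benjamini-Hochberg over all genes tested. A gene passed at an adjusted p below 0.05. The fit was tested on simulated data. Named genes were all 9 antagonists, Gpr161, Wnt1, Gli1 and Axin2, the 3 genes per pathway list with the smallest adjusted p, up to 4 markers per list, and the 5 most correlated with Draxin, of which 1 is not reported here; other genes that passed were named where a count was small, after their values were seen. The antagonists and lists were chosen with earlier results of these data known. Alternatives changed the filter, scaling, fit, block and libraries.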

Additional observations from a re-analysis of the deposited data

How the results depend on the processing

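Draxin and Frzb kept their direction under every alternative run, and the calls of Draxin held throughout both cKO comparisons (adjusted p 8.26e-05 to 0.00134 against the floxed control and 0.000755 to 0.0118 against the Cre control). So did that of Frzb against the Cre control (0.65 to 0.83, adjusted p 0.00291 to 0.0185). The number of antagonists past the test against the floxed control ranged from 2 to 5 when 1 library was left out, with 5 without floxed control replicate 2. Leaving out 1 library gave 290 to 543 DEGs against the floxed control, 53 to 111 against the Cre control and 1 to 28 between the controls. Setting cKO against all 6 control libraries gave 174 DEGs. Without the fold limit there were 5380, 1363 and 8 genes in the 3 comparisons in that order. Between the controls, no filter on low values gave 2 DEGs, and an unadjusted p gave 49 and put 4 antagonists past the threshold.

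Differences near 0 changed sign without passing in either fit, and the cause was not tested. In cKO against the floxed control, leaving out 1 library moved Dkk3 from −0.078 to 0.074, Sfrp2 from −0.00023 to 0.11 and Wif1 from −0.062 to 0.066, and Wif1 was −0.025 against all 6 controls. In cKO against the Cre control it moved Dkk2 from −0.12 to 0.089, Dkk3 from −0.036 to 0.066 and Sfrp2 from −0.10 to 0.24, and Dkk2 was 0.023 with Y-linked genes as a covariate. Between the controls it moved Sfrp1 from −0.043 to 0.067, Dkk3 from −0.11 to 0.053 and Sfrp2 from −0.17 to 0.17, and Sfrp1 was −0.0032 after centring each library on its median.

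Same-numbered libraries of different genotypes deviated together only weakly (median r = 0.10 over 9 pairs, 4 of them above 0.1). For differently numbered libraries the median r was −0.053 over 18 pairs, 3 of them above 0.1. The numbers were not taken as pairs in the main fit, and a fit with a replicate block is given below. Without the filter on low values, 4 antagonists passed against the floxed control, Sfrp5 being added. A replicate block put 4 antagonists past the test against the floxed control, Dkk2 being added (0.52, adjusted p = 0.0495), and 2 against the Cre control. Dkk1 could not be tested at a filter of 5 cpm. The deposited values hold no counts, so the precision that depth gives is unknown, and the shrunk scale limits what Dkk1 and Sfrp5 can show.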
